A study of Fundulus heteroclitus with 53 samples.

Results

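This section describes 71 genes of mitochondrial metabolite transport and protein import in the liver of the Atlantic killifish (Fundulus heteroclitus). They are the genes, of 34089 in the count tables, whose symbols begin with slc25a, timm, tomm, chchd, mpc1, mpc2, letm or mcu. By role, 37 are metabolite carriers (slc25a and mpc genes), 23 belong to the import machinery (tomm, timm and chchd4 genes) and 11 are other inner membrane or CHCH-domain genes. Of these, 64 were expressed highly enough to be tested, comprising 31 carriers, 22 import genes and the 11 others. A family gene that the annotation lists only under a LOC number, as it does 17972 genes, is not among them.

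Mitochondrial carriers of the SLC25 family sit in the inner membrane and exchange organic acids, amino acids, nucleotides, phosphate and cofactors between the matrix and the cytosol. Nearly all mitochondrial proteins are made in the cytosol and enter through the TOM complex of the outer membrane. Proteins with a cleavable presequence then pass the TIM23 complex with its motor, whereas the carriers themselves are handed by small TIM chaperones to the TIM22 complex. In liver, carriers link the mitochondrion to gluconeogenesis, fatty acid synthesis, amino acid breakdown and glutathione supply.

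RNA sequencing was performed on livers of 30 juvenile fish, 1 library per fish and 5 fish in each of 6 groups. The fish were 6 months old and were bred in the laboratory from a few wild parents per population, taken from Scorton Creek (SC, toxicant-sensitive) or New Bedford Harbor (NBH, toxicant-resistant). Each population had a control group in ambient oxygen, a mild hypoxia group at 10% oxygen and a severe hypoxia group at 5% oxygen, all sampled after 6 h. Hypoxia fish were held in closed chambers fed with gas and controls on the benchtop, so oxygen and chamber cannot be told apart. Fish of a population may share parents, so a difference between populations cannot be told apart from one between families.

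Total counts ranged from 4955114 to 23849931 per fish, and group medians ranged from 7393074 in SC mild hypoxia to 18906362 in SC severe hypoxia, so depth differed between groups that are compared. Hepatocyte genes were abundant in every library, with a summed level of the 7 markers found between 83900 and 177000 CPM (counts divided by the TMM-scaled library size). Their median sum was 136000 in SC control, 106000 in SC mild hypoxia and 95200 in SC severe hypoxia, and 149000, 121000 and 110000 in the NBH groups, with every hypoxia fish below all controls of its population. Summed markers of some other cell types were also lower in hypoxia. The 5 fibroblast markers found had a median summed CPM of 156 in SC control and 128 in NBH control, against 15.7 to 32.6 in the hypoxia groups, and the 4 erythroid markers found had 27 in SC control and 11.1 in SC severe hypoxia. In bulk liver, fewer cells of a type and less RNA per cell cannot be told apart, and the part of these shifts in the results below was not tested. NBH severe hypoxia replicate 5, the smallest library, was the lowest of all 30 fish for 16 of the 64 tested genes and the highest for 5.

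Levels are CPM throughout and were not compared between genes. Differences are given as log2 fold changes from edgeR's quasi-likelihood test, which reports no standard error (SE). The SE given was derived as the absolute log2 fold change divided by the square root of the test's F statistic. A gene was called when its Benjamini-Hochberg adjusted p-value, over all 13609 tested genes, was under 0.05. Called carriers moved in both directions in every hypoxia group. The called import genes were all higher in SC mild, SC severe and NBH mild hypoxia, and 2 higher and 2 lower in NBH severe hypoxia. Neither pattern held under every alternative, as given below. In SC mild hypoxia 7 of the 64 members were called, or 10.9%, against 13.6% of all tested genes. These were 4 higher and 3 lower, where 7.25% and 6.36% of all genes were higher and lower. In SC severe hypoxia 15 were called (23.4%), 11 higher and 4 lower, against 28.7% of all genes, 15.2% higher and 13.5% lower. In NBH mild hypoxia 13 were called (20.3%), 10 higher and 3 lower, against 21% of all genes, 11% higher and 10.0% lower. In NBH severe hypoxia 12 were called (18.8%), 5 higher and 7 lower, against 14% of all genes, 7.45% higher and 6.51% lower. With all 30 fish the share of members called was near that of all genes in SC mild, SC severe and NBH mild hypoxia. Without NBH severe hypoxia replicate 5, 18 members were called in NBH severe hypoxia, or 28.1% of the 64 tested with all 30 fish. Of all genes tested with 29 fish 17.5% were called there. The number of members tested with 29 fish was not counted. Without SC control replicate 4 the count in SC mild hypoxia was 11. In NBH mild hypoxia it was 8 without NBH control replicate 1 or NBH mild hypoxia replicate 2, and 7 without NBH control replicate 3 or NBH mild hypoxia replicate 5. Apart from the fit of 29 fish, calls over all genes were not counted with fish left out, here or below. Whether such changes were particular to the members was therefore not tested.

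The fish of the 2 groups compared did not overlap for 5, 9, 12 and 6 of the 64 members in SC mild, SC severe, NBH mild and NBH severe hypoxia. The same held for 11.9%, 18.3%, 13.6% and 9.01% of all tested genes. Across the 4 hypoxia comparisons 37 of the 64 members were called in none, comprising 16 carriers, 14 import genes and 7 others. The 27 called in at least 1 made up 42.2% of the members, and 42.1% of all tested genes were called in at least 1. slc25a11 was the only member called higher in all 4. No member was called lower in all 4, and slc25a34 was called lower in 3.

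**Figure D1:**
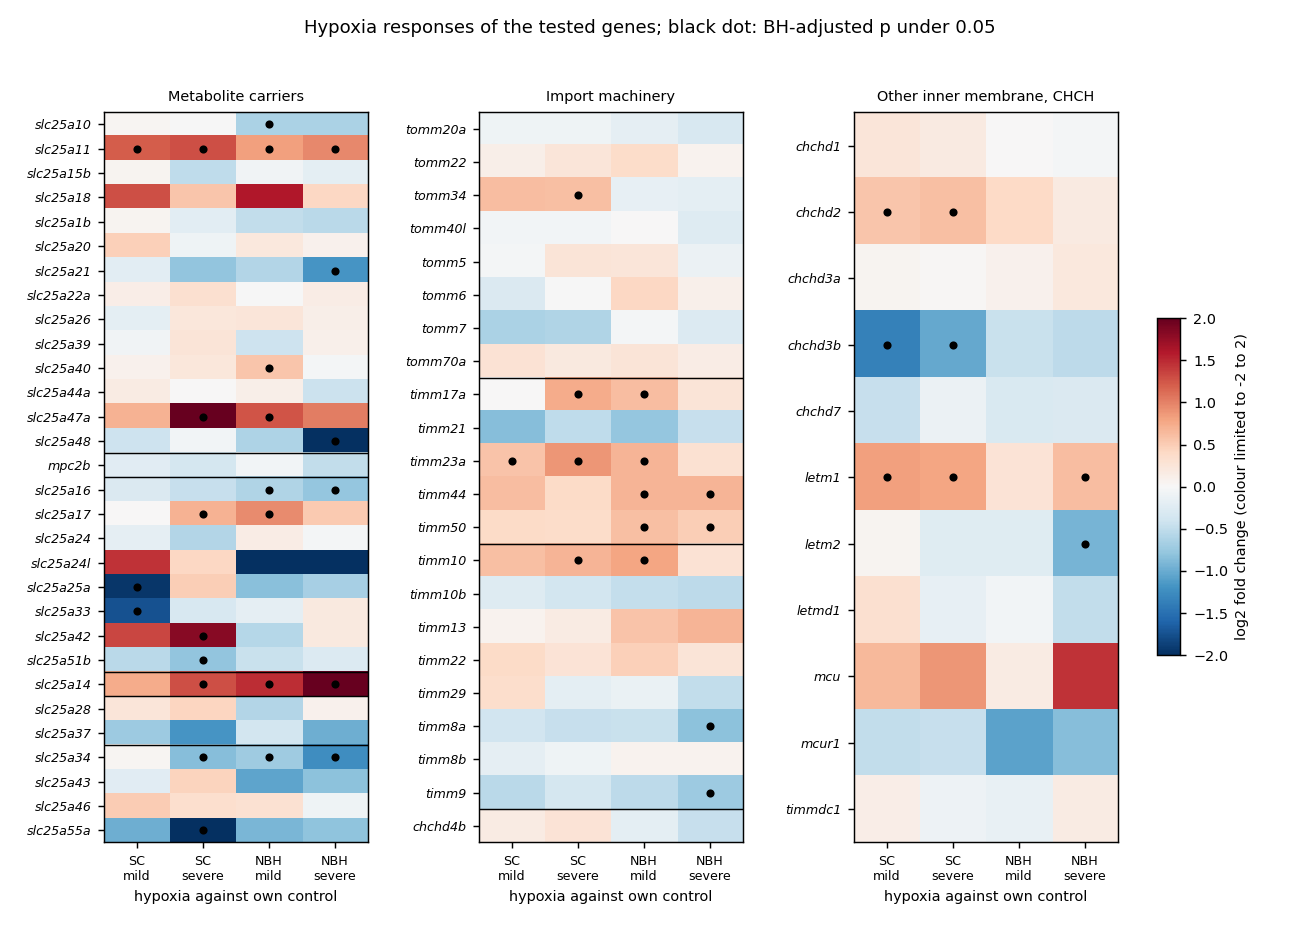
Log2 fold changes of the tested genes, except 1 not shown, in each hypoxia group against the control of the same population, by role, with black dots on genes called at an adjusted p under 0.05 and colours limited to -2 and 2. slc25a11 is called in all 4 columns, and the called TIM23 genes are all higher.

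Set side by side, carriers and import machinery had nearly the same middle in SC fish. The median log2 fold change was 0.04 for carriers and 0.04 for import genes in SC mild hypoxia, and 0.17 and 0.18 in SC severe hypoxia, with medians of 0.00 and 0.01 over all tested genes. In NBH mild hypoxia the classes lay further apart, at -0.19 for carriers and 0.15 for import genes, with 0.02 over all genes. In NBH severe hypoxia they stood at -0.08 and -0.02, with 0.04 over all genes. The difference of the medians, import minus carriers, was thus 0.34 in NBH mild hypoxia and -0.01 to 0.06 in the others. It stayed between 0.17 and 0.51 in NBH mild hypoxia when fish were left out in turn. Within single fish, with each gene centred on its mean over the groups, the import median minus the carrier median was -0.12 ± 0.23 (SD, n = 5, -0.41 to 0.21) in NBH control. It was 0.05 ± 0.17 (SD, n = 5, -0.19 to 0.28) in NBH mild hypoxia, and the fish of these groups overlapped.

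Among carriers, 1, 5, 5 and 2 of 31 were higher and 2, 3, 3 and 4 were lower in SC mild, SC severe, NBH mild and NBH severe hypoxia. Among import genes, 1, 4, 5 and 2 of 22 were higher and 0, 0, 0 and 2 were lower. Over all tested genes, 7.25%, 15.2%, 11% and 7.45% were higher and 6.36%, 13.5%, 10.0% and 6.51% were lower in the same order. Without NBH severe hypoxia replicate 5, 8 carriers and 4 import genes were lower in NBH severe hypoxia. Calls over all genes rose there too, to 2439 of 13914 from 1900 of 13609, and were not split by direction with 29 fish. The counts of 0 lower import genes did not hold under every alternative, since 3 of 11 alternatives gave at least 1 in SC mild, 8 in SC severe and 4 in NBH mild hypoxia. With DESeq2 size factors carriers were 5 higher and 5 lower in SC severe hypoxia and 4 higher and 4 lower in NBH mild hypoxia. Of all 13609 genes 3859 and 2834 were called there, against 3909 and 2860 in the main fit. Carriers also spread more widely, from -2.13 to 2.07 in SC severe hypoxia against -0.60 to 0.89 for import genes. All tested genes ranged from -8.99 to 8.79 there, and the 2 classes differ in their number of genes. Some carriers had low counts, such as slc25a42 at group means of 0.253 to 0.954 CPM, and the spread was not adjusted for level.

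**Figure D2:**
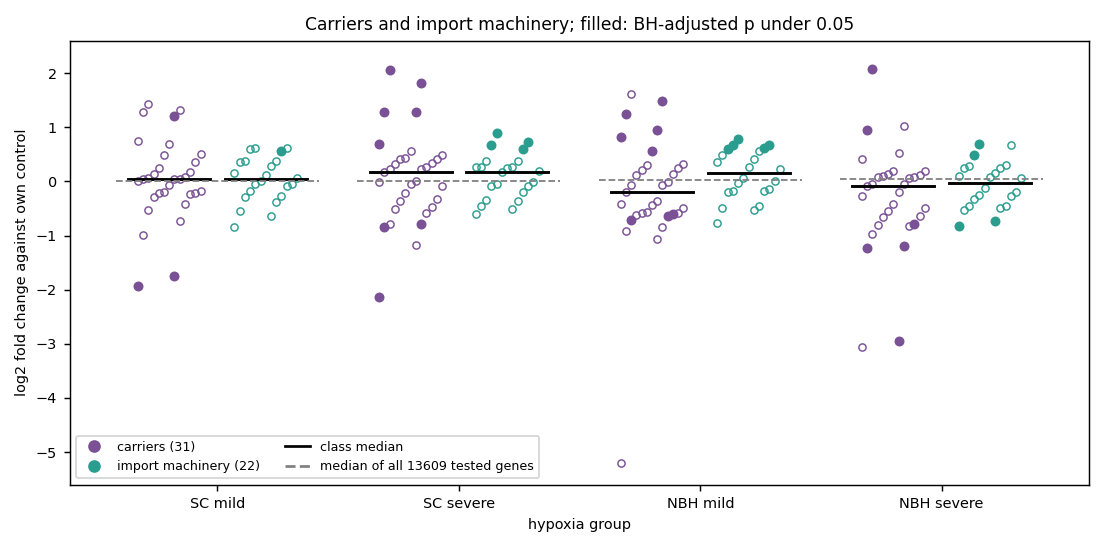
Log2 fold change of each tested carrier (purple, 31) and import gene (green, 22) in the 4 hypoxia groups against the control of their population, with called genes filled, class medians as black bars and the median of all genes dashed. The class medians are 0.34 apart in NBH mild hypoxia and nearly level elsewhere, and the carriers, some of them at low counts, spread more widely.

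Scaling mattered for these modest shifts. Without TMM factors the median of all genes moved from near 0 to 0.28, 0.38, 0.34 and 0.47 in SC mild, SC severe, NBH mild and NBH severe hypoxia, and 18, 26, 19 and 22 members were called. Of all 13609 tested genes, 3044, 5285, 4141 and 4544 were called without these factors. Import genes were then 8, 11, 10 and 9 higher and none lower. Carriers were 4, 11, 7 and 5 higher and 2, 1, 0 and 2 lower. Total count as a covariate left 11, 12, 5 and 11 members called, against 2247, 2555, 1234 and 1558 of all 13609 genes. A fit of only the groups compared left 7 members in NBH severe hypoxia, against 993 of the 11603 genes in that fit. Other alternatives were a fit of 29 fish without NBH severe hypoxia replicate 5, DESeq2, other count filters, and thinning of every library at random to the smallest. Single calls were checked with each of the 10 fish of the 2 groups compared left out in turn, and not with fish of other groups. A call kept throughout was lost neither there nor under an alternative. Of the 47 single calls in the hypoxia comparisons, 18 were kept by every alternative and every such fish left out, and none changed direction.

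Among carriers of organic acids, slc25a11, the oxoglutarate carrier of the malate-aspartate shuttle (on an unplaced scaffold), rose in both populations at both oxygen levels. Its CPM was 12.4, 19.98, 12.4, 16.4 and 11.2 in SC control, 28.6, 24.8, 44.1, 33.5 and 37.5 in SC mild hypoxia and 34.6, 49.8, 31.2, 38.3 and 22.5 in SC severe hypoxia. In NBH fish it was 18.6, 15.4, 13.4, 19.7 and 13.4 in control, 29.3, 30.7, 21.1, 32.3 and 28.9 in mild and 26.97, 47.8, 49.1, 22.3 and 9.05 in severe hypoxia. Every SC hypoxia fish and every NBH mild hypoxia fish lay above all controls of its population, and in NBH severe hypoxia 1 fish, replicate 5, lay below them. The log2 fold changes were 1.22 ± 0.29, adjusted p = 0.00599 in SC mild hypoxia and 1.28 ± 0.29, adjusted p = 0.0018 in SC severe hypoxia by edgeR. They were 0.82 ± 0.29, adjusted p = 0.0428 in NBH mild and 0.96 ± 0.29, adjusted p = 0.0277 in NBH severe hypoxia. The SC calls held under every alternative. The NBH mild call was lost with DESeq2 size factors, with total count as a covariate and after thinning, and without any 1 of NBH control replicates 1, 2, 3 and 5 and NBH mild hypoxia replicates 1, 2, 4 and 5 (adjusted p up to 0.0943). The NBH severe call was lost with only the groups compared in the fit and with total count as a covariate, and without any 1 of NBH control replicates 2, 3 and 5 and NBH severe hypoxia replicates 2 and 3 (adjusted p up to 0.105).

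slc25a47a, a carrier enriched in liver in mammals (chromosome 15, 18562403 to 18568498), rose most in SC severe hypoxia. Its CPM was 2.89, 1.54, 1.87, 3.19 and 1.23 in SC control, 4.05, 2.18, 3.92, 4.28 and 3.15 in SC mild hypoxia and 9.71, 14, 4.33, 4.85 and 12.9 in SC severe hypoxia. In NBH fish it was 3.15, 2.36, 2.67, 2.09 and 0.938 in control, 4.76, 4.47, 3.43, 8.84 and 4.76 in mild and 3.65, 2.74, 5.56, 5.61 and 4.97 in severe hypoxia. All SC severe fish were above all fish of both other SC groups, and all NBH mild fish were above NBH control. The log2 fold change was 2.07 ± 0.35, adjusted p = 0.000111 in SC severe and 1.25 ± 0.36, adjusted p = 0.0143 in NBH mild hypoxia by edgeR. Values that did not pass were 0.69 ± 0.36, adjusted p = 0.198 in SC mild and 1.03 ± 0.36, adjusted p = 0.055 in NBH severe hypoxia. The NBH mild call was lost with total count as a covariate, and without NBH mild hypoxia replicate 4 (adjusted p up to 0.0637), and the SC severe call was kept throughout.

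slc25a48, a mitochondrial choline carrier in mammals (chromosome 23, 7917848 to 7936102), was low in NBH severe hypoxia alone among the groups. Its CPM there was 2.22, 0.638, 1.48, 2.504 and 0.177, against 19.7, 9.07, 11.7, 14.8 and 3.99 in NBH control and 3.901, 3.08, 13.4, 10.98 and 6.97 in NBH mild hypoxia. In SC fish it ranged over 5.02 to 21.8 in control, 3.46 to 17.6 in mild and 3.25 to 19.2 in severe hypoxia. No NBH severe fish reached the lowest fish of any other group. The log2 fold change against NBH control was -2.95 ± 0.58, adjusted p = 0.00153 by edgeR, and this call was kept by every alternative and every fish left out. A non-coding gene that overlaps it held 4 counts over all fish, against 4055 for slc25a48.

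slc25a10, the dicarboxylate carrier, and slc25a1b, the citrate carrier that exports citrate for fatty acid synthesis, had their lower values in NBH hypoxia. In NBH severe hypoxia neither was called. There slc25a10 spanned 81.3 to 172 CPM and slc25a1b 176 to 440, and both overlapped NBH control. slc25a10 had CPM of 180.3, 196, 206, 165 and 175 in NBH control and 131, 99.5, 163, 105 and 97.5 in NBH mild hypoxia, with no overlap. Its log2 fold change was -0.63 ± 0.23, adjusted p = 0.0491 by edgeR, and the call was lost without TMM factors, without the count filter and with total count as a covariate, and without any 1 of NBH control replicates 1, 2, 3, 4 and 5 and NBH mild hypoxia replicates 1, 2, 4 and 5 (adjusted p up to 0.122). Its values in SC fish were 0.04 in mild and -0.01 in severe hypoxia. slc25a1b ranged over 389.6 to 520.1 CPM in NBH control and 237 to 369 in NBH mild hypoxia without overlap, yet did not pass (log2 fold change -0.50 ± 0.21, adjusted p = 0.0846 by edgeR). In SC severe hypoxia its log2 fold change was -0.21 ± 0.21. Its copy slc25a1a was too low to test, at a mean of 0.297 CPM in SC control and 0.0215 to 0.128 in the others.

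slc25a21, the oxodicarboxylate carrier of lysine and tryptophan breakdown, fell in NBH severe hypoxia. Its CPM was 7.47, 14.7, 22.7, 10.9 and 16.3 in NBH control and 3.501, 6.64, 4.795, 9.32 and 7.63 in NBH severe hypoxia, and 2 hypoxia fish lay within the control range. The log2 fold change was -1.19 ± 0.31, adjusted p = 0.0113 by edgeR, a call lost without TMM factors. In the other hypoxia groups it was -0.21, -0.79 and -0.59, none past the test.

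slc25a40, a mitochondrial glutathione importer in mammals, rose in NBH mild hypoxia from 10.97, 5.802, 10.5, 9.62 and 10.5 CPM in control to 13.5, 11.96, 14.1, 17.6 and 13.4, without overlap. The log2 fold change was 0.56 ± 0.16, adjusted p = 0.0138 by edgeR, lost with total count as a covariate and after thinning, and without NBH mild hypoxia replicate 4 (adjusted p up to 0.0529). slc25a39, its paralog, was not called, with log2 fold changes from -0.42 to 0.26. The carnitine-acylcarnitine carrier slc25a20, which brings fatty acids in for oxidation, was not called either. It spanned 5.31 to 18.4 CPM in SC control and 10.1 to 17.7 in SC mild hypoxia, with log2 fold changes from -0.08 to 0.48. The glutamate carriers slc25a22a and slc25a18, the S-adenosylmethionine carrier slc25a26 and the ornithine carrier slc25a15b were called in no hypoxia group. slc25a18 had the largest values among them, 1.29 ± 0.66 in SC mild and 1.61 ± 0.65 in NBH mild hypoxia, at group means of 0.239 to 0.726 CPM. mpc2b, a subunit of the pyruvate carrier, had negative log2 fold changes in all 4 groups, -0.22, -0.36, -0.06 and -0.50, and did not pass in any.

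**Figure D3:**
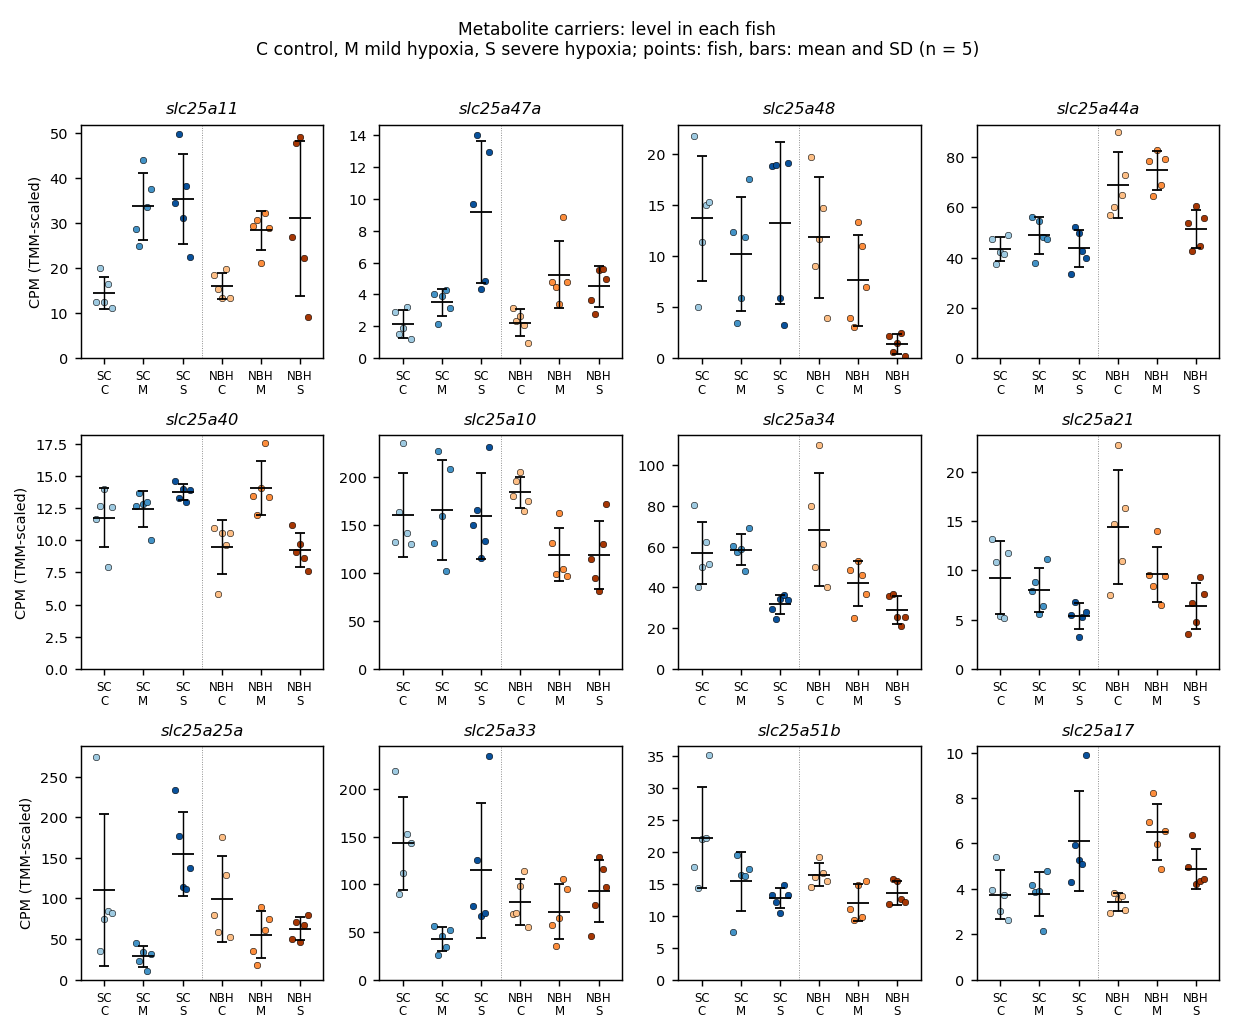
CPM of 12 carriers in each of the 30 fish, by population and oxygen level, with group means and SD (n = 5). slc25a11 is higher in hypoxia in both populations, slc25a48 is lowest in NBH severe hypoxia, and slc25a25a and slc25a33 are lowest in SC mild hypoxia.

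Of the 9 carriers of nucleotides, phosphate and cofactors tested, slc25a25a and slc25a33 differed between the oxygen levels in SC fish. slc25a25a, a calcium-regulated ATP-Mg/phosphate carrier (chromosome 12, 24173451 to 24181332), had CPM of 275, 34.9, 75.2, 84.8 and 82.2 in SC control, 44.6, 22.3, 34.3, 10.7 and 31.8 in SC mild hypoxia and 233, 178, 114, 112 and 137 in SC severe hypoxia. Mild hypoxia fish were the lowest, although replicate 1 of that group overlapped the lowest control. Its log2 fold change was -1.94 ± 0.46, adjusted p = 0.00592 in SC mild hypoxia and 0.49 ± 0.45, adjusted p = 0.43 in SC severe hypoxia by edgeR, and only the first passed. In NBH fish it was -0.83 ± 0.45 in mild and -0.66 ± 0.45 in severe hypoxia, neither called. The fall in SC mild hypoxia was kept by every alternative and every fish left out, including SC control replicate 1, the highest fish.

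slc25a33, a pyrimidine nucleotide carrier (chromosome 1, 18486517 to 18496189), was likewise lowest in SC mild hypoxia among SC fish. Its CPM was 219, 90.3, 112, 153 and 144 in SC control, 56.5, 25.7, 45.3, 34.5 and 51.5 in SC mild hypoxia and 76.9, 125, 66.7, 69.8 and 235 in SC severe hypoxia. Every SC mild fish was below every fish of the other SC groups. The log2 fold change was -1.75 ± 0.35, adjusted p = 0.00165 in SC mild hypoxia by edgeR, kept throughout. In SC severe, NBH mild and NBH severe hypoxia it was -0.32, -0.19 and 0.20, none past the test.

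Carriers of coenzyme A and NAD moved in both directions. slc25a17, a peroxisomal carrier of coenzyme A, FAD and NAD, rose from 2.92, 3.81, 3.56, 3.69 and 3.05 CPM in NBH control to 6.94, 8.24, 5.99, 4.89 and 6.55 in NBH mild hypoxia, without overlap (0.94 ± 0.23, adjusted p = 0.00508 by edgeR, kept throughout). It also rose in SC severe hypoxia, spanning 2.603 to 5.41 CPM in control and 4.31 to 9.902 in severe hypoxia, with overlap (0.69 ± 0.22, adjusted p = 0.0214 by edgeR). That call was lost with only the groups compared in the fit, with total count as a covariate and after thinning, and without any 1 of SC control replicates 3 and 5 and SC severe hypoxia replicate 5 (adjusted p up to 0.106). In NBH severe hypoxia slc25a17 spanned 4.21 to 6.38 CPM, above all NBH controls, yet was not called. slc25a42, a mitochondrial coenzyme A carrier, rose in SC severe hypoxia from 0.331, 0, 0.179, 0.603 and 0.153 to 1.297, 0.887, 0.783, 0.825 and 0.976 CPM without overlap, at low levels (1.83 ± 0.55, adjusted p = 0.0144 by edgeR). The slc25a42 call was lost with total count as a covariate. slc25a51b, an NAD carrier, fell in SC severe hypoxia from 17.6, 14.3, 22.05, 22.2 and 35.2 to 13.3, 12.2, 10.4, 14.8 and 13.3 CPM, where 1 hypoxia fish lay within the control range (-0.80 ± 0.22, adjusted p = 0.00736 by edgeR). Its call was lost without TMM factors and with total count as a covariate. slc25a16, a proposed coenzyme A carrier, fell in NBH fish, spanning 10.3 to 20.6 CPM in control, 6.76 to 11.6 in mild (-0.60 ± 0.18, adjusted p = 0.0203) and 6.32 to 10.3 in severe hypoxia (-0.78 ± 0.18, adjusted p = 0.00575 by edgeR). The mild call was lost without TMM factors and without the count filter, and without any 1 of NBH control replicate 3 and NBH mild hypoxia replicate 5 (adjusted p up to 0.0816), and the severe call without TMM factors.

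slc25a24l had the largest log2 fold change of any member, -5.21 ± 2.07 in NBH mild hypoxia, and did not pass (adjusted p = 0.0724 by edgeR). Its CPM was 0.117, 3.44, 0.742, 4.01 and 0.0781 in NBH control and 0.0574, 0, 0.0581, 0.0499 and 0 in NBH mild hypoxia. In SC control it was 0, 4.44, 0, 0 and 0, so it was near 0 in some fish of both populations and above 3 CPM in others. The ATP-Mg/phosphate carrier slc25a24 was called in no group.

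slc25a14, an uncoupling-protein-like carrier, rose in 3 of the 4 groups at low levels. Its CPM ranged over 0.446 to 0.776 in SC control and 0.702 to 2.83 in SC severe hypoxia (1.28 ± 0.45, adjusted p = 0.0331 by edgeR). In NBH fish it ranged over 0.233 to 0.544 in control, 0.499 to 1.57 in mild (1.48 ± 0.50, adjusted p = 0.0353) and 0.448 to 3.73 in severe hypoxia (2.08 ± 0.50, adjusted p = 0.00697 by edgeR). The SC severe call was lost in DESeq2, and without any 1 of SC control replicates 2, 3 and 5 and SC severe hypoxia replicates 3 and 5 (adjusted p up to 0.133). The NBH mild call was lost without the count filter, in DESeq2 and after thinning, and without any 1 of NBH control replicates 1, 3 and 5 and NBH mild hypoxia replicates 2 and 5 (adjusted p up to 0.0871), and the NBH severe call after thinning. The iron carriers slc25a28 and slc25a37 (mitoferrins) were not called. slc25a37, the mitoferrin of red cell precursors, had log2 fold changes of -0.73, -1.18, -0.36 and -0.98, beside the lower summed erythroid markers noted above.

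slc25a34, a carrier with no assigned substrate (chromosome 20, 21976528 to 21986103), fell in 3 groups. Its CPM was 80.6, 40.3, 50.2, 62.3 and 51.5 in SC control, 60.3, 57.2, 58.8, 48 and 69.02 in SC mild hypoxia and 29.3, 24.7, 34.2, 36.1 and 34 in SC severe hypoxia. In NBH fish it was 80.3, 50.2, 110.3, 61.3 and 40.2 in control, 48.7, 25.1, 52.9, 46.3 and 36.8 in mild and 35.7, 36.8, 25.5, 21.3 and 25.5 in severe hypoxia. Both severe groups lay wholly below their controls. Log2 fold changes were -0.85 ± 0.23, adjusted p = 0.0082 in SC severe, -0.70 ± 0.23, adjusted p = 0.0323 in NBH mild and -1.24 ± 0.24, adjusted p = 0.00118 in NBH severe hypoxia by edgeR. The NBH severe call was kept throughout and the SC severe call was lost without TMM factors. The NBH mild call was lost without TMM factors, without the count filter, with only the groups compared in the fit and with total count as a covariate, and without any 1 of NBH control replicates 1 and 3 and NBH mild hypoxia replicates 2 and 5 (adjusted p up to 0.16). slc25a34 lies 59116 bases from slc25a20 on chromosome 20, which was not called.

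slc25a55a fell in SC severe hypoxia, from 16.4, 8.49, 14.4, 4.48 and 8.73 CPM in SC control to 2.13, 0.554, 2.49, 3.64 and 3.27, without overlap (-2.13 ± 0.47, adjusted p = 0.00139 by edgeR, kept throughout). Its log2 fold changes in the other groups were -0.98, -0.91 and -0.80, none past the test. slc25a46, an outer membrane protein of the family tied to mitochondrial shape, and slc25a43 were called in no group.

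Among import genes, the TIM23 complex and its motor held most of the calls. Of its 5 tested genes 1, 2, 4 and 2 were higher in SC mild, SC severe, NBH mild and NBH severe hypoxia, against 7.25%, 15.2%, 11% and 7.45% of all genes, and none was lower. timm23a, the channel subunit (chromosome 10, 13879858 to 13885784), had CPM of 8.35, 7.53, 6.87, 8.102 and 4.59 in SC control, 11.5, 8.96, 13.5, 9.39 and 9.33 in SC mild hypoxia and 13.1, 14.9, 13.5, 13.5 and 10.97 in SC severe hypoxia. In NBH fish it had 6.65, 4.895, 6.68, 7.54 and 8.44 in control, 11.99, 10.7, 8.08, 12.8 and 11.4 in mild and 8.38, 8.102, 8.11, 8.97 and 9.22 in severe hypoxia. Both SC hypoxia groups lay wholly above SC control, and the NBH groups overlapped their control by 1 fish or more. Its log2 fold changes were 0.56 ± 0.16, adjusted p = 0.0212 in SC mild, 0.89 ± 0.16, adjusted p = 0.000245 in SC severe and 0.68 ± 0.16, adjusted p = 0.00492 in NBH mild hypoxia by edgeR. In NBH severe hypoxia it was 0.31 ± 0.16 and did not pass. The SC mild call was lost with only the groups compared in the fit, and without any 1 of SC control replicate 5 and SC mild hypoxia replicate 3 (adjusted p up to 0.08), and the other 2 were kept throughout.

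timm17a, the partner of timm23a in the channel (chromosome 20, 14145924 to 14150554), rose in SC severe and NBH mild hypoxia. Its CPM was 26.4, 29.7, 26.6, 27.2 and 26.2 in SC control, 28.6, 22.4, 37.98, 23.3 and 24.5 in SC mild hypoxia and 46, 45.5, 45.5, 42.6 and 47.1 in SC severe hypoxia. Among NBH fish, CPM was 22.1, 18.3, 24.2, 21.3 and 23.99 in control, 36.4, 31.2, 25.6, 41.8 and 33.1 in mild and 27.7, 22.7, 21.9, 32 and 26.8 in severe hypoxia. The 5 SC severe fish lay close together above all other fish of the study. On the log2 scale it differed from control by 0.74 ± 0.14, adjusted p = 0.000525 in SC severe and 0.61 ± 0.15, adjusted p = 0.00435 in NBH mild hypoxia by edgeR, both kept throughout. In SC mild and NBH severe hypoxia it was 0.01 and 0.25 and did not pass. Its copy timm17b was too low to test, at group means of 0.104 to 0.449 CPM.

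timm50, the presequence receptor, rose in NBH mild hypoxia from 6.77, 5.26, 6.23, 5.45 and 7.19 CPM in control to 10.1, 8.94, 8.25, 9.14 and 10.6, without overlap (0.60 ± 0.16, adjusted p = 0.0109 by edgeR). It was called in NBH severe hypoxia too, at 7.002 to 10.3 CPM (0.49 ± 0.16, adjusted p = 0.0457 by edgeR). The mild call was lost with total count as a covariate. The severe call was lost with DESeq2 size factors, without the count filter, in DESeq2, with only the groups compared in the fit, with total count as a covariate and after thinning, and without any 1 of NBH control replicates 1, 2, 3 and 4 and NBH severe hypoxia replicates 2 and 3 (adjusted p up to 0.118).

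timm44, which tethers the import motor to the channel, rose in NBH mild hypoxia from 2.33, 2.901, 1.93, 2.41 and 3.05 to 3.27, 4.53, 3.89, 4.14 and 4.41 CPM without overlap (0.67 ± 0.21, adjusted p = 0.0236 by edgeR). In NBH severe hypoxia it spanned 2.66 to 5.33 CPM (0.68 ± 0.21, adjusted p = 0.03 by edgeR). The mild call was lost with total count as a covariate, and without any 1 of NBH control replicates 1 and 3 and NBH mild hypoxia replicates 2 and 5 (adjusted p up to 0.0664). The severe call was lost without the count filter, with only the groups compared in the fit and with total count as a covariate, and without any 1 of NBH control replicates 1, 3 and 4 and NBH severe hypoxia replicates 1 and 2 (adjusted p up to 0.0861). In SC fish neither gene passed, with 0.38 and 0.37 for timm50 and 0.61 and 0.39 for timm44. timm21, a subunit that links the channel to TOM, had negative values in all 4 groups, from -0.85 to -0.46, and was not called.

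Among the TIM22 complex and small TIM chaperones, timm10 rose and timm8a and timm9 fell in at least 1 group. timm10, a chaperone subunit for carrier precursors (chromosome 5, 20775080 to 20779509), rose in SC severe and NBH mild hypoxia. Its CPM was 11.3, 11.2, 8.39, 15.7 and 8.42 in SC control and 16.1, 12.6, 21.2, 20.1 and 18.4 in SC severe hypoxia, with partial overlap. The NBH values were 11.2, 5.802, 9.94, 6.096 and 12.03 in control and 12.96, 15.7, 13.7, 17.3 and 19.04 in mild hypoxia, without overlap. In SC mild hypoxia timm10 spanned 12.6 to 21.6 CPM, with a mean of 16.7 against 17.7 in SC severe hypoxia, and was not called. In NBH severe hypoxia it spanned 6.21 to 14.9 CPM and was not called either. Against control, the log2 change was 0.68 ± 0.23, adjusted p = 0.0252 in SC severe and 0.79 ± 0.23, adjusted p = 0.0158 in NBH mild hypoxia by edgeR. The SC severe call was lost with total count as a covariate and after thinning, and without any 1 of SC control replicates 3 and 5 and SC severe hypoxia replicates 3 and 4 (adjusted p up to 0.0718), and the NBH mild call with total count as a covariate, and without NBH control replicate 2 (adjusted p up to 0.0532).

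timm9, which pairs with timm10 in the same chaperone ring, fell in NBH severe hypoxia instead. Its CPM was 65.6, 54.8, 52.7, 36.3 and 51.3 in NBH control and 31.7, 25.2, 31.1, 39.2 and 29.6 in NBH severe hypoxia, and 1 hypoxia fish exceeded the lowest control (-0.73 ± 0.20, adjusted p = 0.0147 by edgeR). Its log2 fold changes were negative in the other 3 groups, -0.54, -0.35 and -0.52, without passing. timm8a, of the other small TIM ring, fell from 37.1, 28.6, 36.1, 31.1 and 36.1 to 21.9, 17.4, 14.03, 23.9 and 18.6 CPM between NBH control and NBH severe hypoxia, without overlap (-0.82 ± 0.23, adjusted p = 0.0165 by edgeR). The timm9 call was lost without TMM factors, and the timm8a call without TMM factors, and without NBH severe hypoxia replicate 3 (adjusted p up to 0.0534). timm8b, timm10b, timm13, timm22 and timm29 were called in no group. timm22, the channel of the carrier translocase, had CPM of 1.68 to 3.57 in SC control, 2.85 to 4.55 in SC mild hypoxia and 3.11 to 4.06 in SC severe hypoxia, and log2 fold changes of 0.25 to 0.48 over the 4 groups. timm10b had values from -0.26 to -0.53, all negative.

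**Figure D4:**
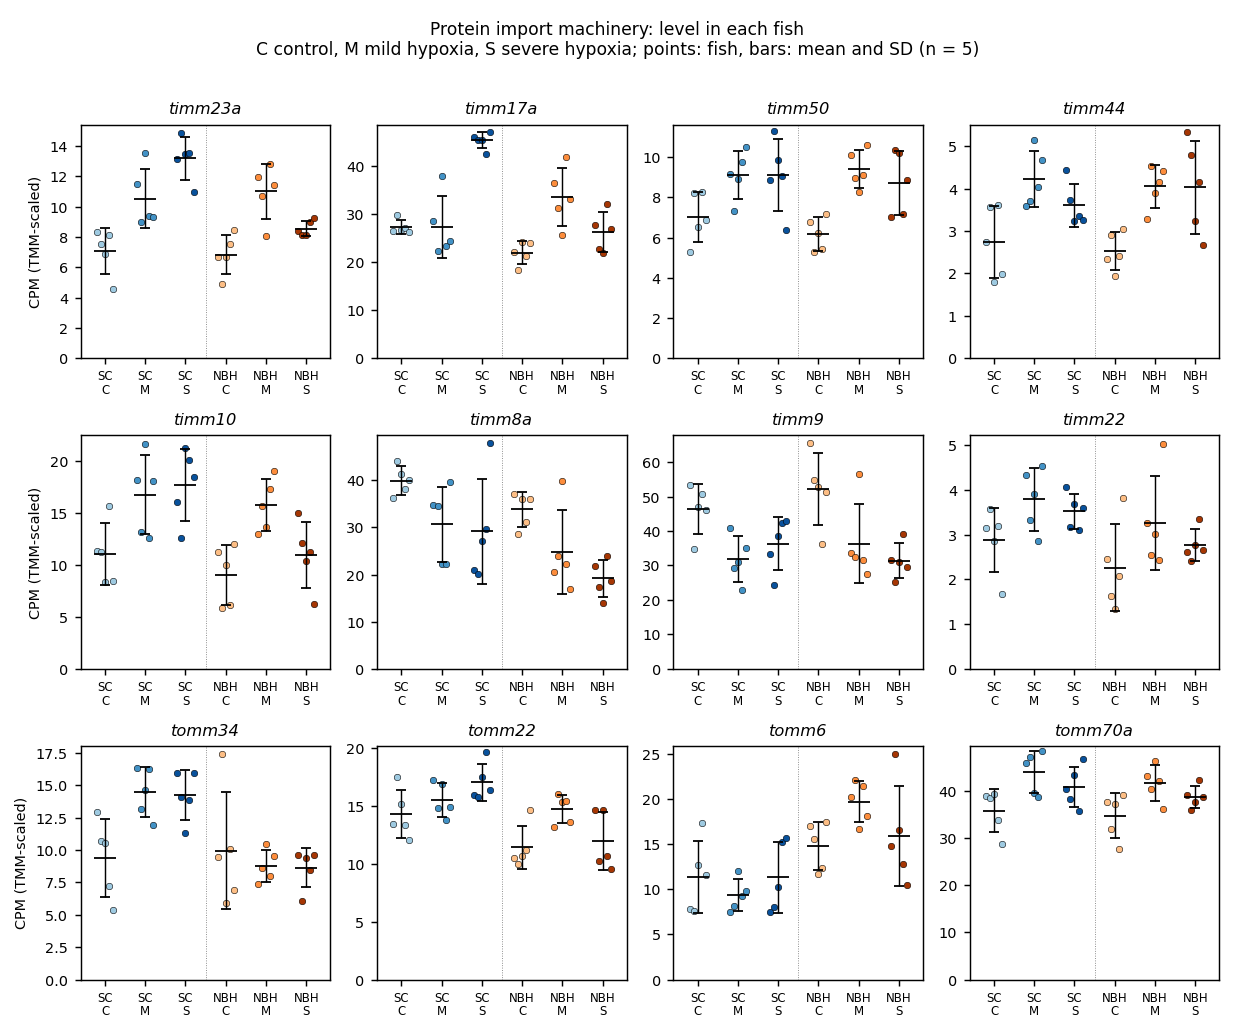
CPM of 12 import genes in each of the 30 fish, by population and oxygen level, with group means and SD (n = 5). timm23a and timm17a are highest in SC severe hypoxia, timm8a and timm9 are lower in NBH severe hypoxia than in NBH control, and the tomm70a group means lie between 34.7 and 43.9.

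Of the 8 tomm genes tested, which include the subunits of the outer membrane TOM complex, 0, 1, 0 and 0 were higher and none was lower in SC mild, SC severe, NBH mild and NBH severe hypoxia, against the shares of all genes given above. tomm34, a cytosolic co-chaperone of import, was called higher in SC severe hypoxia, at 15.9, 14.1, 11.3, 13.8 and 15.95 CPM against 12.9, 10.7, 10.5, 7.24 and 5.36 in SC control, with overlap (0.60 ± 0.22, adjusted p = 0.0454 by edgeR). In SC mild hypoxia, where it was not called, its mean was as high, at 14.5 CPM against 14.2 in SC severe hypoxia and 9.35 in SC control. The tomm34 call was lost with DESeq2 size factors, with the filter blind to groups, in DESeq2, with only the groups compared in the fit, with total count as a covariate and after thinning, and without any 1 of SC control replicates 2, 3, 4 and 5 and SC severe hypoxia replicates 1, 2, 4 and 5 (adjusted p up to 0.129). The presequence receptor tomm20a spanned 19.8 to 31.2 CPM in SC control and 22.7 to 24.2 in SC severe hypoxia, with log2 fold changes from -0.33 to -0.08. The carrier receptor tomm70a gave 0.29, 0.19, 0.26 and 0.16, the central receptor tomm22 0.12, 0.25, 0.36 and 0.07. tomm7, a small subunit, had the lowest values of the tomm genes, -0.63 ± 0.24 in SC mild hypoxia and -0.60 ± 0.24 in SC severe hypoxia, neither past the test. chchd4b, the MIA40 oxidoreductase of the intermembrane space, had log2 fold changes from -0.46 to 0.27 and was not called.

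**Figure D5:**
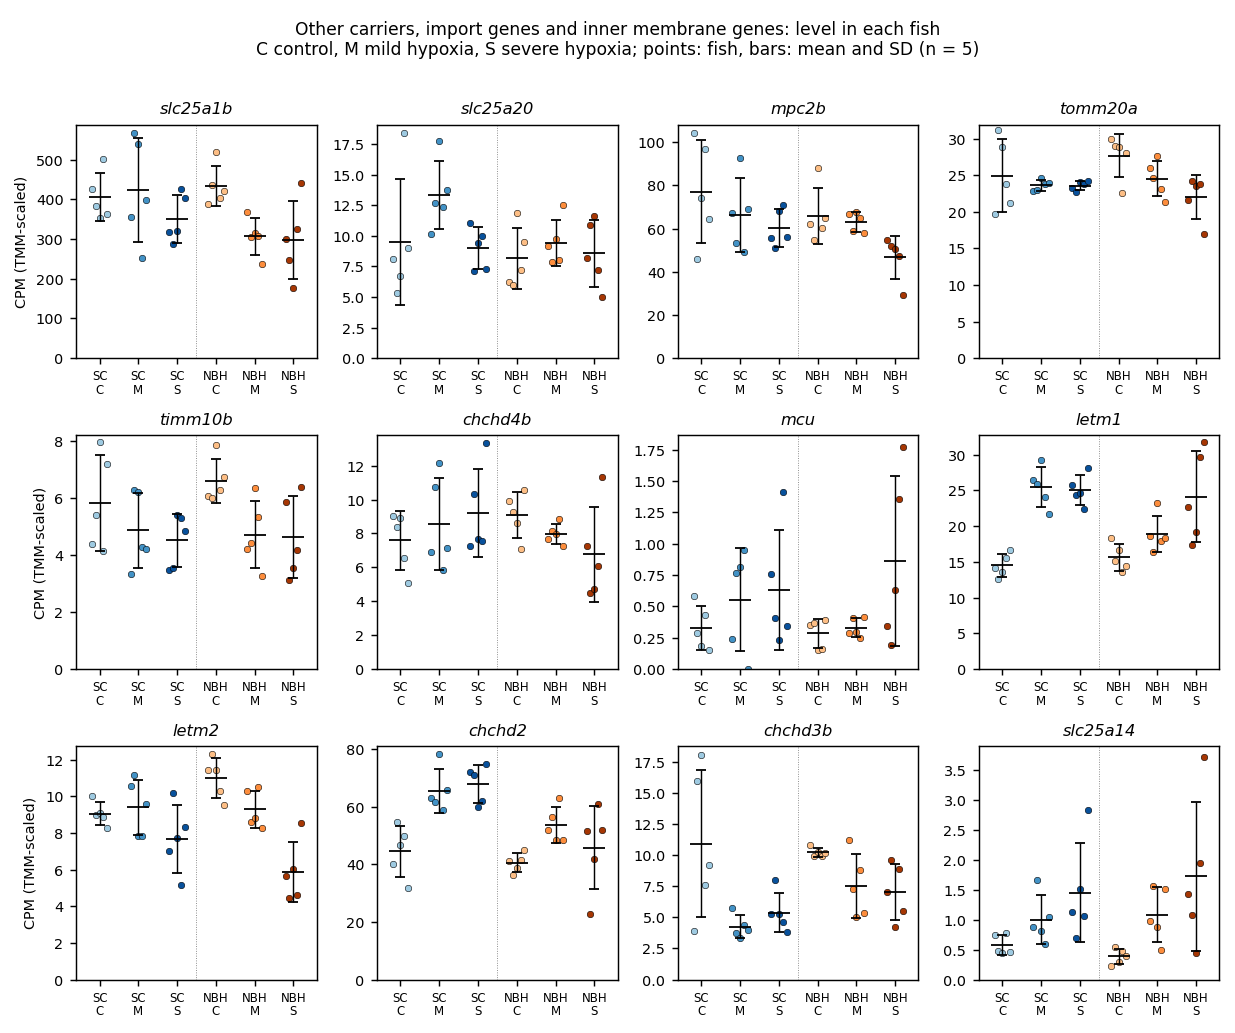
CPM of 12 further genes in each of the 30 fish, by population and oxygen level, with group means and SD (n = 5). letm1 and chchd2 are higher in both SC hypoxia groups than in SC control, chchd3b is lower there, and letm2 is lowest in NBH severe hypoxia.

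Of the 11 other inner membrane and CHCH genes, 4 (36.4%) were called in at least 1 hypoxia group, against 42.1% of all tested genes. letm1, an inner membrane cation exchanger, rose from 14.1, 12.6, 13.6, 15.5 and 16.7 CPM in SC control to 26.5, 25.9, 29.3, 24.1 and 21.7 in SC mild hypoxia and 25.8, 24.4, 24.6, 22.4 and 28.1 in SC severe hypoxia. No hypoxia fish overlapped the controls. Its log2 fold change was 0.81 ± 0.15, adjusted p = 0.000716 in SC mild hypoxia and 0.79 ± 0.15, adjusted p = 0.000342 in SC severe hypoxia by edgeR, kept throughout. In NBH severe hypoxia it was 0.62 ± 0.15, adjusted p = 0.00666, a call lost with only the groups compared in the fit. letm2, a related gene, fell in NBH severe hypoxia from 11.4, 12.3, 11.4, 10.3 and 9.53 to 5.67, 4.47, 6.05, 4.61 and 8.52 CPM without overlap (-0.93 ± 0.17, adjusted p = 0.000931 by edgeR, kept throughout).

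chchd2, a protein of the intermembrane space that also acts in the nucleus, rose in SC mild and SC severe hypoxia without overlap. Its CPM was 40.1, 54.5, 46.7, 49.8 and 31.7 in SC control, 62.97, 61.6, 78.3, 58.8 and 65.9 in SC mild hypoxia and 72.1, 71.1, 59.8, 62.1 and 74.7 in SC severe hypoxia (0.55 ± 0.18, adjusted p = 0.0368 and 0.61 ± 0.18, adjusted p = 0.0124 by edgeR). In NBH fish chchd2 spanned 36.3 to 44.9 CPM in control, 48.3 to 62.9 in mild and 22.8 to 61.1 in severe hypoxia. All NBH mild fish thus lay above all NBH controls, yet it was called in neither NBH group. The chchd2 call in SC mild hypoxia was lost without the count filter, and without any 1 of SC control replicates 1, 3 and 5 and SC mild hypoxia replicates 1, 3 and 5 (adjusted p up to 0.115). chchd3b, of the cristae-organizing MICOS complex, fell in SC mild hypoxia from 3.89, 15.9, 18.03, 7.58 and 9.19 to 5.75, 3.71, 3.38, 4.396 and 3.96 CPM and reached 5.27, 7.98, 5.25, 4.61 and 3.805 in SC severe hypoxia. SC control replicate 1, the lowest control, lay within the range of both hypoxia groups, and SC control replicate 4 within that of severe hypoxia (-1.35 ± 0.31, adjusted p = 0.00447 and -1.02 ± 0.30, adjusted p = 0.0121 by edgeR). In NBH fish chchd3b was called in neither hypoxia group. Yet all NBH severe hypoxia fish, at 4.26 to 9.63 CPM, lay below all NBH controls, at 9.95 to 10.9, while NBH mild hypoxia spanned 5.00 to 11.2. The chchd3b call in SC severe hypoxia was lost without TMM factors, and without SC control replicate 3 (adjusted p up to 0.0655). Its copy chchd3a gave 0.05 and 0.03. How reads shared by such copies were counted is not given in the sources used here, so values of near-identical copies are uncertain. mcu, the pore of the calcium uniporter, was low, at group means of 0.282 to 0.858 CPM, and had log2 fold changes of 0.88 ± 0.62 in SC severe and 1.45 ± 0.67 in NBH severe hypoxia without passing. Its regulator mcur1 had values from -1.06 to -0.46, and timmdc1, a complex I assembly factor, from -0.15 to 0.16.

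Severe and mild hypoxia were then compared directly within each population. In SC fish 5 of 64 members differed (4 higher and 1 lower in severe hypoxia), against 2.90% of all genes. slc25a25a differed by 2.43 ± 0.47, adjusted p = 0.00334 by edgeR, without overlap of the fish given above, and timm17a by 0.73 ± 0.14, adjusted p = 0.00394, also without overlap. The slc25a25a call was kept throughout and the timm17a call was lost with total count as a covariate. slc25a33 (1.42 ± 0.35, adjusted p = 0.0216 by edgeR), slc25a47a (1.38 ± 0.34, adjusted p = 0.0217) and slc25a34 (-0.89 ± 0.23, adjusted p = 0.0326) made up the rest, none overlapping. The slc25a33 call was lost with only the groups compared in the fit and with total count as a covariate, and without any 1 of SC mild hypoxia replicates 2 and 4 and SC severe hypoxia replicates 2 and 5 (adjusted p up to 0.105). That of slc25a47a was lost with only the groups compared in the fit and with total count as a covariate, and without any 1 of SC mild hypoxia replicates 2 and 5 and SC severe hypoxia replicates 1, 2 and 5 (adjusted p up to 0.0882). That of slc25a34 was lost without TMM factors, without the count filter, with total count as a covariate and after thinning, and without any 1 of SC mild hypoxia replicates 1, 2, 3 and 5 and SC severe hypoxia replicates 1, 2 and 3 (adjusted p up to 0.102). With total count as a covariate 1 member was called, against 213 of all genes. Without SC mild hypoxia replicate 2 or SC severe hypoxia replicate 2 there were 2 members called. Without SC mild hypoxia replicate 5 or SC severe hypoxia replicate 1 or 5 there were 3.

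In NBH fish 3 of 64 members were lower in severe than in mild hypoxia and none was higher, against 1.95% of all genes in either direction and 0.625% lower. slc25a48 differed by -2.33 ± 0.57, adjusted p = 0.03 and slc25a40 by -0.60 ± 0.16, adjusted p = 0.0417 by edgeR, both without overlap. letm2 differed by -0.69 ± 0.17, adjusted p = 0.0305 by edgeR, with 10.3, 8.59, 8.84, 10.5 and 8.28 CPM in mild hypoxia, which overlapped the severe hypoxia values above. slc25a40 spanned 11.96 to 17.6 CPM in mild and 7.63 to 11.2 in severe hypoxia, against 5.802 to 10.97 in control. The slc25a48 call was lost with 29 fish, with only the groups compared in the fit and after thinning, and without any 1 of NBH mild hypoxia replicate 4 and NBH severe hypoxia replicates 2, 3 and 5 (adjusted p up to 0.0818). The letm2 call was lost without TMM factors, without the count filter, with only the groups compared in the fit and after thinning, and without any 1 of NBH mild hypoxia replicates 1 and 4 and NBH severe hypoxia replicates 2 and 4 (adjusted p up to 0.0853). The slc25a40 call was lost with 29 fish, without TMM factors, without the count filter, with only the groups compared in the fit, with total count as a covariate and after thinning, and without any 1 of NBH mild hypoxia replicates 1, 4 and 5 and NBH severe hypoxia replicates 2, 3, 4 and 5 (adjusted p up to 0.137). The count was 0 without NBH mild hypoxia replicate 4 or NBH severe hypoxia replicate 2, and 1 without NBH mild hypoxia replicate 1 or NBH severe hypoxia replicate 4 or 5. Of the 22 import genes 18 had a negative difference, including all 8 tomm genes, with a median of -0.23 against 0.00 for all genes, and none passed. NBH severe hypoxia replicate 5 was the lowest of all 30 fish for 16 of the 64 members, and these signs were not counted again without it.

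Between populations, 1 member differed in control fish against 1.62% of all genes. slc25a44a, a carrier of branched-chain amino acids in mammals (chromosome 2, 8428724 to 8435590), had CPM of 47.3, 37.5, 42.2, 41.4 and 49.01 in SC control and 56.8, 60.01, 89.9, 64.97 and 72.8 in NBH control, without overlap. In mild hypoxia it was 56.2, 37.8, 54.6, 48.2 and 47.2 in SC and 78.3, 64.6, 82.5, 68.7 and 79.1 in NBH fish, again without overlap. The log2 difference, NBH against SC, was 0.67 ± 0.15, adjusted p = 0.0192 in control and 0.61 ± 0.15, adjusted p = 0.0357 in mild hypoxia by edgeR. In severe hypoxia it was 0.24 ± 0.15 and did not pass, with 33.6 to 52.1 CPM in SC and 42.6 to 60.7 in NBH fish. The control call was lost without TMM factors and without the count filter, and without any 1 of SC control replicates 2 and 3 and NBH control replicate 3 (adjusted p up to 0.074). The mild call was lost without TMM factors, without the count filter, with only the groups compared in the fit and with total count as a covariate, and without any 1 of SC mild hypoxia replicates 2, 4 and 5 and NBH mild hypoxia replicates 1 and 5 (adjusted p up to 0.109).

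In mild hypoxia 2 members differed between populations, against 1.25% of all genes. Besides slc25a44a this was tomm6, a small TOM subunit, with 7.51, 8.19, 12.03, 9.27 and 9.79 CPM in SC and 20.2, 22.1, 16.7, 21.5 and 18.1 in NBH fish, without overlap (1.08 ± 0.24, adjusted p = 0.0191 by edgeR). The tomm6 call was lost with total count as a covariate, and without any 1 of SC mild hypoxia replicates 1 and 2 (adjusted p up to 0.0602). In control fish tomm6 gave 0.38 ± 0.24 and in severe hypoxia 0.50 ± 0.24. The count in mild hypoxia was 0 without SC mild hypoxia replicate 2, and 1 without SC mild hypoxia replicate 1, 4 or 5 or NBH mild hypoxia replicate 1 or 5. The count in control fish was 0 without SC control replicate 2 or 3 or NBH control replicate 3, and 2 without SC control replicate 4 or NBH severe hypoxia replicate 1 or 2.

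In severe hypoxia 7 members (10.9%) were lower in NBH than in SC fish and none was higher, against 7.32% of all genes in either direction and 3.42% lower. They were 2 carriers, 4 import genes and 1 other. slc25a48 differed most, at -3.11 ± 0.58, adjusted p = 0.00214 by edgeR, with 18.8, 18.99, 5.898, 3.25 and 19.2 CPM in SC fish against the NBH values above. timm17a differed by -0.79 ± 0.14, adjusted p = 0.00196 and timm23a by -0.63 ± 0.16, adjusted p = 0.0163 by edgeR, without overlap. The slc25a48 and timm17a calls were kept throughout, and the timm23a call was lost with only the groups compared in the fit.

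tomm22 had 15.9, 15.8, 17.5, 19.7 and 16.3 CPM in SC and 14.7, 10.3, 14.7, 10.7 and 9.58 in NBH severe hypoxia, without overlap (-0.50 ± 0.14, adjusted p = 0.026 by edgeR), and its call was lost with 29 fish, without the count filter, with only the groups compared in the fit, with total count as a covariate and after thinning, and without any 1 of SC severe hypoxia replicate 4 and NBH severe hypoxia replicates 2, 4 and 5 (adjusted p up to 0.0645). slc25a40 had 14.6, 13.3, 14.01, 12.96 and 13.9 in SC and 11.2, 9.12, 9.68, 8.61 and 7.63 in NBH severe hypoxia, without overlap (-0.57 ± 0.16, adjusted p = 0.0269 by edgeR). The slc25a40 call was lost with 29 fish, with only the groups compared in the fit, with total count as a covariate and after thinning, and without any 1 of SC severe hypoxia replicate 1 and NBH severe hypoxia replicates 4 and 5 (adjusted p up to 0.0613). tomm34 (-0.72 ± 0.22, adjusted p = 0.0445 by edgeR) and chchd2 (-0.57 ± 0.18, adjusted p = 0.0481) were the others. The tomm34 call was lost with 29 fish, with DESeq2 size factors, without the count filter, with the filter blind to groups, with only the groups compared in the fit, with total count as a covariate and after thinning, and without any 1 of SC severe hypoxia replicates 1, 2, 4 and 5 and NBH severe hypoxia replicates 1, 2, 3, 4 and 5 (adjusted p up to 0.0969). The chchd2 call was lost with DESeq2 size factors, without the count filter, with the filter blind to groups, with only the groups compared in the fit, with total count as a covariate and after thinning, and without any 1 of SC severe hypoxia replicates 1, 2, 4 and 5 and NBH severe hypoxia replicates 1, 2 and 3 (adjusted p up to 0.098). Of the 22 import genes 16 were lower in NBH severe hypoxia, with a median of -0.22 against 0.00 for all genes. These signs too were not counted again without NBH severe hypoxia replicate 5. The count of 7 was 3 with only the groups compared, with total count as a covariate or after thinning, and 4 without the count filter. Calls over all genes were then 197, 673, 667 and 820, against 996 in the main fit. The count of members was also 4 without SC severe hypoxia replicate 1 or NBH severe hypoxia replicate 2 or 4.

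The response to hypoxia was tested for a difference between populations. In mild hypoxia none of the 64 members passed by edgeR's quasi-likelihood test, against 0% of all genes. DESeq2 gave 0 members there, against 42 of the 25158 genes in its fit. By edgeR 13 members (20.3%) had an unadjusted p under 0.05, against 7.69% of all genes. The lowest adjusted p was 0.333 (0.158 to 0.551 over the alternatives), for slc25a33, whose response was 1.56 ± 0.49 higher on the log2 scale in NBH than in SC fish. In severe hypoxia none passed, against 0.00735% of all genes (1 gene). There 8 members (12.5%) had an unadjusted p under 0.05 by edgeR, against 11% of all genes. The lowest adjusted p was 0.151, for slc25a48, with a difference of -2.90 ± 0.77 between the responses. DESeq2 called that gene alone among the members (log2 difference -2.95, SE 0.76, adjusted p = 0.0364), and the other alternatives gave 0.112 to 0.305. Over all 25158 genes in its fit DESeq2 called 76 in this comparison. Responses that passed in one population and not in the other are therefore not shown to differ between them by the main test.

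Other genes of the same pathways, listed by role but with earlier results of these data known, numbered 44, of which 39 were tested. They were 6, 11, 6 and 2 higher and 4, 5, 4 and 6 lower in SC mild, SC severe, NBH mild and NBH severe hypoxia. The shares called were 25.6%, 41%, 25.6% and 20.5%, against 13.6%, 28.7%, 21% and 14% of all genes. Only some of the called genes are named below, and their calls were not checked under the alternatives or with fish left out. The presequence processing peptidase subunits pmpcb (1.07, 0.91 and 0.96) and pmpca (0.56, 0.76 and 0.71) rose in the first 3 groups on the log2 scale. hspa9, the import motor Hsp70, rose in SC mild (0.43 ± 0.15, adjusted p = 0.0499 by edgeR) and SC severe hypoxia (0.74 ± 0.15, adjusted p = 0.000673). The matrix chaperonin hspd1 rose in SC severe, NBH mild and NBH severe hypoxia (0.85, 0.62 and 0.74). dnajc19, a co-chaperone of the motor, fell in all 4 groups (-1.37, -1.50, -1.05 and -1.0), as did sfxn1, a mitochondrial serine transporter (-0.77, -0.96, -1.44 and -1.03). vdac3, an outer membrane channel, fell in SC severe, NBH mild and NBH severe hypoxia (-0.63, -0.97 and -1.01). Between populations in severe hypoxia hspa9 (-0.68 ± 0.15, adjusted p = 0.00705 by edgeR) and pmpca (-0.63 ± 0.17, adjusted p = 0.0219) were lower in NBH fish.

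The 7 members too low to test were slc25a15a, slc25a1a, slc25a23a, slc25a25b, slc25a35, slc25a4 and timm17b. slc25a4, the adenine nucleotide translocase of muscle and heart in mammals, had CPM of 0.579, 1.93, 1.34, 0.172 and 0 in SC control and 0, 0.0739, 0.276, 0 and 0 in SC severe hypoxia. The 6 skeletal muscle markers found had a median summed CPM of 12.6 and 1.26 in these groups, and their part in the slc25a4 values was not tested. The members lie on 22 chromosomes and, for 6 of them, on unplaced scaffolds of the assembly MU-UCD_Fhet_4.1. Of the placed members 9 overlap another annotated gene, whose counts were 0 to 31 in 6 cases, 272 for tet1 beside slc25a16, 5475 for foxo1a beside slc25a15a and 21633 for a gene beside slc25a15b.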

How the data were processed

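Livers of 30 fish were profiled, and 23 bisulfite libraries of the series were not used here. The authors trimmed single-end reads with Trimmomatic, aligned them with STAR and counted them per gene with HTSeq-count, and deposited raw counts. The strand and multi-mapping settings of the counting are not given in the sources used here. One NBH severe hypoxia library that the study left out is not named in the labels, so all 30 were kept. Fish were grouped by the population and oxygen level in their labels.

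Counts were scaled by TMM, filtered by filterByExpr and tested by edgeR 4.0.16 (quasi-likelihood, R 4.3.3) in 1 fit of 6 group means, with Benjamini-Hochberg adjustment over 13609 genes and a threshold of 0.05. DESeq2 1.42.0 was an alternative. The others were no TMM factors, DESeq2 size factors, no count filter, a filter blind to groups, a newer quasi-likelihood method, only the groups compared, a replicate block, total count as a covariate, thinning to the smallest library of 4955114 counts, 29 fish (without NBH severe hypoxia replicate 5, which an earlier analysis of these files took for the omitted library), and each fish left out. For single calls, only fish of the 2 groups compared were left out. The tested genes held 99.9% of counts. The code was tested on simulated data.

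Members and lists were chosen with earlier results of these data known. Values in every fish are given in the text or the plots for 3 sets. The first is the 3 carriers and 3 import genes with the largest called change in each hypoxia group, averaging at least 10 CPM. The second is up to 5 members called in each other comparison, and the third is genes fixed by role. For slc25a1a and timm17b of the third set, too low to test, only group means are given. Positions are those of MU-UCD_Fhet_4.1, in which all 71 members were found. Values of 1 tested member are not reported here; it is included in the counts and medians.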

Additional observations from a re-analysis of the deposited data

Results flagged for a closer look

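In 19 genes, each with 6 groups of 5 fish, 8 of 114 groups had 1 fish far from the other 4, with a gap to the nearest fish of over 0.71 of the group's range (Dixon's criterion). Chance gives about 1 in 20 groups. Among carriers, slc25a25a was at 275 CPM in SC control replicate 1, against 34.9 to 84.8 in the other controls. slc25a40 was at 5.80 CPM in NBH control replicate 2 (others 9.62 to 10.97) and at 10.0 in SC mild hypoxia replicate 5 (others 12.7 to 13.7). slc25a47a was at 8.84 CPM in NBH mild hypoxia replicate 4 (others 3.43 to 4.76). slc25a51b was at 7.45 CPM in SC mild hypoxia replicate 1 (others 16.3 to 19.5). Among import genes, timm17a was at 29.7 CPM in SC control replicate 2 (others 26.2 to 27.2). timm9 was at 56.6 CPM in NBH mild hypoxia replicate 3 (others 27.6 to 33.6). tomm22 was at 14.7 CPM in NBH control replicate 5 (others 9.97 to 11.2).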

How the results depend on the processing

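No call changed direction under any alternative, and the cause of each change below was not tested. Without TMM factors the members called were 18 in SC mild, 26 in SC severe and 22 in NBH severe hypoxia, against 7, 15 and 12. Of all genes 3044, 5285 and 4544 were called there, against 1852, 3909 and 1900. The members called were then 1 for NBH severe against mild hypoxia (main value 3), and 0 in control and 11 in severe hypoxia between populations (main values 1 and 7). Of all genes 451, 359 and 1081 were called in these comparisons, against 265, 221 and 996 in the main fit. With total count as a covariate the members called were 11 in SC mild and 5 in NBH mild hypoxia (main value 13), 1 for SC severe against mild hypoxia (main value 5), and 0 in mild and 3 in severe hypoxia between populations. All genes called there were 2247, 1234, 213, 72 and 673, against 1852, 2860, 395, 170 and 996 in the main fit. With only the groups compared the members called were 7 in NBH severe hypoxia, 3 and 0 for severe against mild hypoxia in SC and NBH fish, and 3 between populations in severe hypoxia. Calls over all genes fell there too, to 993, 253, 11 and 197, against 1900, 395, 265 and 996 in the main fit. After thinning the members called were 0 for NBH severe against mild hypoxia and 3 between populations in severe hypoxia, against 186 and 667 of the 10751 genes tested. Without the count filter the members called were 1 for NBH severe against mild hypoxia, and 0, 1 and 4 between populations in control, mild and severe hypoxia. Of the 25158 genes in that fit 167, 181, 161 and 820 were called. With 29 fish 1 member was called for NBH severe against mild hypoxia, against 165 of 13914 genes. The newer quasi-likelihood method gave 2 members between populations in control fish, against 304 of all genes. DESeq2 gave 4 members between populations in mild hypoxia and 1 for the severe interaction, against 443 and 76 of 25158 genes.

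With 1 fish left out, the counts ranged from 5 to 11 in SC mild, 11 to 18 in SC severe, 7 to 18 in NBH mild and 9 to 18 in NBH severe hypoxia. They ranged from 2 to 5 and 0 to 4 for severe against mild hypoxia in SC and NBH fish, from 0 to 2, 0 to 3 and 4 to 8 between populations in control, mild and severe hypoxia, and stayed at 0 for both interactions. The import minus carrier median ranged from -0.12 to 0.09, -0.11 to 0.21, 0.17 to 0.51 and -0.016 to 0.25 in SC mild, SC severe, NBH mild and NBH severe hypoxia. Replicate numbers did not pair the fish, since correlations of 75 same-numbered pairs ran from -0.242 to 0.22. With a replicate block 5 members were called between populations in severe hypoxia, and the other counts were the same although single calls were lost. These were chchd2 in SC mild (edgeR adjusted p = 0.052), slc25a10 in NBH mild (0.056) and timm50 in NBH severe hypoxia (0.0706), slc25a40 in NBH severe against mild hypoxia (0.0573), and chchd2 (0.061) and tomm34 (0.0613) between populations in severe hypoxia.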
